A study of Mus musculus with 27 samples.

Results

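The genes described here encode 8 interferon regulatory factors (IRFs), Irf1, Irf2, Irf3, Irf4, Irf5, Irf7, Irf8 and Irf9. They were taken by gene symbol from a table of 55483 genes in 27 libraries. The cells were RAW264.7, a line of mouse macrophages, kept for 6 h in DMSO alone (the solvent control), in LPS (1 µg/ml) or in LPS together with TM7nox (10 µM). LPS, or lipopolysaccharide, is the bacterial cell-wall component that Toll-like receptor 4 senses. TM7nox is one of the tanshinone mimics, a group of compounds made to act on the RNA-binding protein HuR. The LPS group without TM7nox also received DMSO. Each treatment had 4 total RNA libraries, 4 libraries of RNA recovered with anti-HuR antibody (ribonucleoprotein immunoprecipitation, RIP) and 1 library recovered with control IgG, all from about 30 M cells a sample. The labels name no genetic change, and every library came from this 1 cell line. The labels number the replicates but do not say whether they were separate cultures, so the p-values measure the spread between these samples, which may be technical.

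IRFs are transcription factors that share a DNA-binding domain for GAAA-containing sites in interferon and interferon-stimulated genes. In macrophages, Irf3, Irf5 and Irf7 are activated by signalling from Toll-like and cytosolic nucleic acid receptors and switch on interferon and cytokine genes. Irf9 is part of the complex that answers secreted type I interferon, while Irf1, Irf4 and Irf8 tune macrophage activation and identity, and Irf2 mostly opposes Irf1. HuR, the product of Elavl1, is known for binding U-rich and AU-rich stretches, often in 3′ untranslated regions (3′ UTRs) of mRNAs.

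In total RNA, LPS raised Irf1, Irf5, Irf7, Irf8 and Irf9. In the RNA recovered with anti-HuR these 5, Irf2 and Irf4 passed the test. The LPS changes of Irf2 and Irf4 are not shown to differ between the kinds of RNA (change of the ratio 0.35, edgeR FDR 0.902, and 0.12, FDR 0.991). In total RNA Irf2 was called without 1 shallow DMSO library and Irf4 with a replicate block, and the Irf4 call with anti-HuR was lost in 7 of 14 alternatives. With TM7nox added to LPS, Irf1 was lower in total RNA (edgeR FDR 0.0480) and Irf7 was lower in the anti-HuR RNA (FDR 0.0459). When same-numbered libraries were paired as blocks, Irf8 was lower as well in both kinds of RNA (FDR 0.0251 and 0.00110), Irf1 was lower in both (0.0289 and 0.0176), and Irf7 was again lower in the anti-HuR RNA (0.00482). Irf2 and Irf4 were higher with anti-HuR than in total RNA and than with IgG, and Irf3 and Irf9 were lower. For no IRF did the ratio of anti-HuR to total RNA pass the test for a change between treatments.

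The libraries held 2.73 to 28.3 M counts for total RNA, 19.8 to 41.4 M for RIP and 8.87 to 24.5 M for IgG. The shallowest was DMSO total RNA replicate 1, which also held the highest level in its group of Irf1, Irf2, Irf3, Irf7 and Irf9. Where leaving it out changed a call or a direction, the value without it is also given. Macrophage markers were present. Of 9, 8 averaged over 1 CPM (counts scaled to a common library size by TMM), with a summed level of 3307 to 6904 CPM, whereas none of the T cell, fibroblast or epithelial markers did. Among dendritic cell markers 2 of 5 averaged over 1 CPM, and among B cell markers 1 of 4. In these bulk samples fewer cells expressing a gene and less RNA per cell cannot be told apart.

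Promoter sequences of all 8 genes, 11 in number, were found in RefSeq on build GRCm38.p6, each reaching from 250 bases before to 50 after the transcript start. They were searched on both strands for GAAA, any 2 bases, GAAA (the core of an interferon-stimulated response element), for TTCNNNGAA (the form of a gamma-activated site, which STAT proteins bind) and for the NF-kB consensus. Irf1, Irf2 and Irf8 each had a match. Their promoters are shown because they hold the matches, in capitals. LPS also raised genes without a match, among them Irf7, Irf5 and Irf9. Those of Irf1, chr11:53769764-53770063, Irf2, chr8:46739495-46739794, and Irf8, chr8:120736108-120736407, all lie on the plus strand.
Irf1 promoter: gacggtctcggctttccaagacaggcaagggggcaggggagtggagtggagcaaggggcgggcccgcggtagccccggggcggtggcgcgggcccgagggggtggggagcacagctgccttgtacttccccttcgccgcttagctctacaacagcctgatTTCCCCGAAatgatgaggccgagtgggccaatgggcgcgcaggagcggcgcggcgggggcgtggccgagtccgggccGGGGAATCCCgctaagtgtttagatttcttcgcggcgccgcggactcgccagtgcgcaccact
Irf2 promoter: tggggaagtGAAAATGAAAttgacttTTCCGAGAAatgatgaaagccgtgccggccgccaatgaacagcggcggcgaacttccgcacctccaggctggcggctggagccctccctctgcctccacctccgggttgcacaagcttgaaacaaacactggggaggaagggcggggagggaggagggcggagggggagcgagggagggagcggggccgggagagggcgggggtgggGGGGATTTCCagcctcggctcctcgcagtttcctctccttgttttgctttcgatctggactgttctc
Irf8 promoter: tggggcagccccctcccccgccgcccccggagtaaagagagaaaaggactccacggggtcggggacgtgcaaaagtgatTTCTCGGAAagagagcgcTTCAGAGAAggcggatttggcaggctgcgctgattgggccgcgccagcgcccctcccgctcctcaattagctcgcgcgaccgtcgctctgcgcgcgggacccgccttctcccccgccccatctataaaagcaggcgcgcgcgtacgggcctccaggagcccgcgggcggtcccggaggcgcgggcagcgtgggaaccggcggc
In Irf1 the capitals mark TTCCCCGAA at -90 to -82 from the start and an NF-kB match at -13 to -4. In Irf2 they mark a GAAA pair at -241 to -232, a TTCNNNGAA match at -224 to -216 and an NF-kB match at -17 to -8. In Irf8 they mark TTCNNNGAA matches at -171 to -163 and at -153 to -145. For comparison, among 32851 promoters of the same length the GAAA pair was in 3.44%, TTCNNNGAA in 8.30% and the NF-kB consensus in 8.46%. The forms searched were not in the windows of Irf3, Irf4, Irf5, Irf7 and Irf9, nor in the second promoters of Irf1 and Irf8, which says nothing of other windows. A match in a window is a description of its letters and no evidence that a factor was bound.

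On GRCm39, Irf1 lies at chr11:53660812-53669200, Irf2 at chr8:47192222-47300501, Irf3 at chr7:44647033-44652272 and Irf4 at chr13:30933209-30950959. Irf5 lies at chr6:29526276-29541870, Irf7 at chr7:140842619-140846398, Irf8 at chr8:121463096-121485659 and Irf9 at chr14:55841028-55847812. Irf7 is on the minus strand and the others are on the plus strand, and all are protein-coding. Irf3 overlaps Bcl2l12 and Scaf1, Irf5 overlaps Tnpo3 and Irf7 overlaps Phrf1, all on the other strand, and Irf1 and Irf2 overlap predicted genes there. Irf9 overlaps Rnf31 on its own strand. The setting used to count strands is not given in the sources used here, so reads of these overlaps may have gone to either gene.

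Per kilobase of transcript, Irf5 and Irf7 led total RNA in DMSO, with means of 74.6 and 56.0 CPM per kb (n = 4). Irf2 followed at 20.3, Irf9 at 13.2, Irf3 at 7.08, Irf8 at 6.58, Irf1 at 3.09 and Irf4 at 0.285 CPM per kb. The libraries of Irf5 and Irf7, Irf7 and Irf2, Irf2 and Irf9, and Irf3 and Irf8 overlapped, so the order of those neighbours did not exceed their spread. Without DMSO replicate 1 the means were 42.2 CPM per kb for Irf7, 14.1 for Irf2, 11.9 for Irf9, 6.94 for Irf8 and 5.94 for Irf3. The order of Irf3 and Irf8 thus turned, and these were the neighbours that still overlapped. In LPS, Irf7 reached 395 CPM per kb and 64.2% of the summed level of the 8 genes, against 30.9% in DMSO (26.9% without replicate 1). Irf5 came next at 122 CPM per kb, with no overlap with Irf7, followed by Irf8 at 29.4, Irf2 at 25.2 and then Irf9, which overlapped in that order. Below them came Irf1, then Irf3 at 6.13 and Irf4 at 0.732 CPM per kb. With TM7nox added, Irf7 was again first at 325 CPM per kb and Irf5 second at 123, while Irf9 at 27.9 stood above Irf2 at 18.2 and Irf8 at 17.4, which overlapped. The anti-HuR RNA had another order in DMSO, led by Irf2 at 49.8 CPM per kb, then Irf5 at 48.1 and Irf7, neighbours that overlapped. There Irf2 made up 34.3% of the summed level, against 11.2% in total RNA (8.98% without replicate 1).

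**Figure D1:**
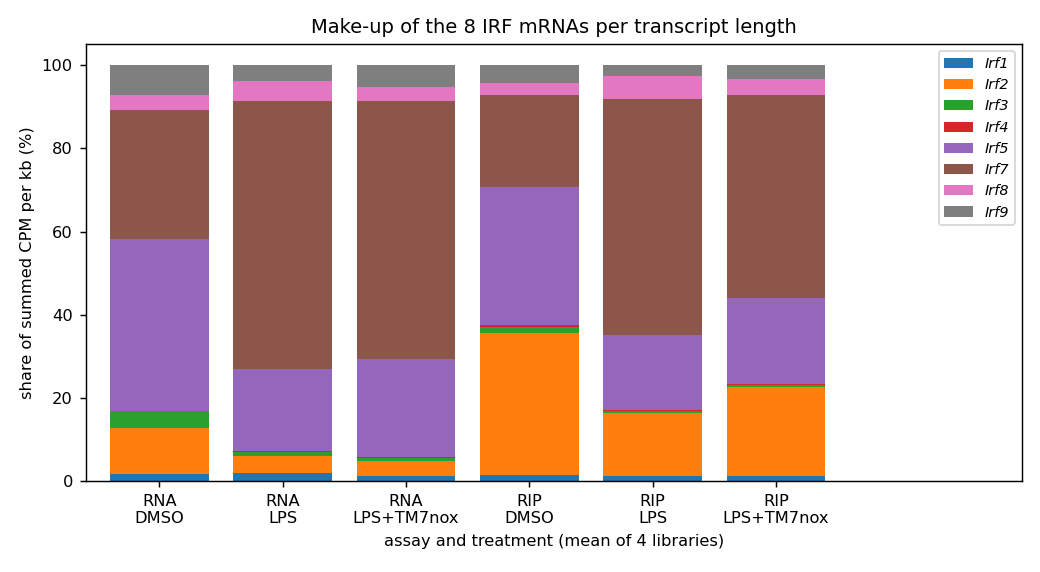
Stacked bars give each gene's share (%) of the summed CPM per kb of the 8 IRF genes, from means of 4 libraries, for total RNA and anti-HuR RIP in each treatment. Irf7 takes 64.2% of total RNA in LPS against 30.9% in DMSO, and Irf2 takes 34.3% of the anti-HuR RNA in DMSO against 11.2% of total RNA.

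Irf7, the factor that amplifies type I interferon production, rose most of the 8 genes in fitted log2 change. In total RNA it stood at 234, 92.2, 109 and 102 CPM in DMSO (replicates 1 to 4, as in all lists here), at 978, 828, 1030 and 953 in LPS and at 688, 762, 803 and 860 in LPS+TM7nox. Every LPS library lay above every DMSO library, and LPS and LPS+TM7nox overlapped. The change with LPS was 2.79 on the log2 scale (SE 0.268, edgeR FDR 1.67e-06), and that between LPS+TM7nox and LPS was -0.28 (SE 0.250, edgeR FDR 0.534). In the anti-HuR RNA, Irf7 stood at 109, 47.4, 72.8 and 77.5 CPM in DMSO, at 675, 587, 894 and 1061 in LPS and at 377, 417, 571 and 561 in LPS+TM7nox. The 3 groups did not overlap there. LPS raised it by 3.37 (SE 0.278, edgeR FDR 9.99e-08), and TM7nox with LPS was lower than LPS by -0.79 (SE 0.255, edgeR FDR 0.0459). This last call was held in 5 of 14 alternative analyses and lost on leaving out any of LPS replicates 1, 3 and 4 or any LPS+TM7nox library (FDR 0.0534 to 0.140). DMSO total RNA replicate 1 stood above the other DMSO libraries, whose mean was 101 CPM without it and 134 CPM with it.

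Irf3, which is present before stimulation and is activated by phosphorylation, did not pass the test with LPS. Its levels in total RNA were 21.6, 12.5, 12.3 and 12.1 CPM in DMSO, 14.4, 11.7, 12.8 and 11.8 in LPS and 9.74, 8.78, 10.7 and 9.87 in LPS+TM7nox. The last group lay below both others. DMSO replicate 1 stood above every other library. The log2 difference of LPS from DMSO was -0.20 (95% interval -0.61 to 0.21), and without that library it was 0.03 (edgeR FDR 0.854). LPS+TM7nox was lower than DMSO by -0.57 (SE 0.193, edgeR FDR 0.0245), a call held in 8 of 14 alternatives and lost without LPS+TM7nox replicate 1, 2 or 4 (FDR 0.0513 to 0.0667), and against LPS the difference was -0.37 (FDR 0.236). Without DMSO replicate 1 the difference from DMSO was -0.34 (edgeR FDR 0.0386). The anti-HuR RNA held 4.53, 4.33, 3.71 and 3.68 CPM in DMSO, 5.11, 3.62, 4.99 and 5.57 in LPS and 3.61, 2.95, 5.13 and 5.00 in LPS+TM7nox, and these groups overlapped.

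Irf5, which drives inflammatory cytokine genes downstream of Myd88, rose with LPS in both kinds of RNA. Total RNA held 174, 160, 180 and 139 CPM in DMSO, 308, 274, 251 and 238 in LPS and 232, 291, 281 and 272 in LPS+TM7nox. Both LPS groups lay above DMSO and overlapped each other. The change with LPS was 0.69 (SE 0.130, edgeR FDR 0.000704), and the difference of LPS+TM7nox from LPS was 0.00 with a 95% interval of -0.27 to 0.28. With anti-HuR it stood at 128, 94.4, 113 and 85.4 CPM in DMSO, at 243, 226, 232 and 225 in LPS and at 152, 190, 229 and 171 in LPS+TM7nox. LPS raised it there by 1.12 (SE 0.174, edgeR FDR 7.99e-05), and the difference of LPS+TM7nox from LPS, -0.37, did not pass (FDR 0.156).

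Irf1, an activator induced by interferon gamma and by NF-kB signalling, rose with LPS and was lower with TM7nox in total RNA. The levels were 9.86, 5.77, 5.51 and 5.25 CPM in DMSO, 29.2, 30.0, 20.2 and 23.1 in LPS and 9.11, 18.5, 14.2 and 18.1 in LPS+TM7nox. No LPS library overlapped either other group, while LPS+TM7nox replicate 1 lay below DMSO replicate 1. LPS raised Irf1 by 2.01 (SE 0.259, edgeR FDR 2.74e-05). The difference of LPS+TM7nox from LPS was -0.77 (SE 0.241, edgeR FDR 0.0480), in the same direction in 4 of 4 same-numbered pairs. That call was held in 7 of 14 alternatives and was lost without any of LPS replicates 1, 2 and 4 or LPS+TM7nox replicates 1, 3 and 4 (FDR 0.0583 to 0.131). The anti-HuR RNA held 5.34, 3.44, 4.28 and 4.28 CPM in DMSO, 17.8, 13.5, 16.1 and 21.8 in LPS and 6.79, 12.9, 10.5 and 15.6 in LPS+TM7nox. LPS raised it by 1.98 (SE 0.247, edgeR FDR 9.50e-06) and left no overlap with DMSO. The difference of LPS+TM7nox from LPS was -0.65 (edgeR FDR 0.0715), and with the replicate number as a block it was -0.66 (FDR 0.0176).

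Irf2, a factor that competes with Irf1 for shared sites, did not pass the test in total RNA. It stood at 97.5, 37.5, 34.1 and 34.6 CPM in DMSO, at 96.4, 60.6, 46.9 and 49.3 in LPS and at 53.1, 55.2, 37.3 and 37.3 in LPS+TM7nox. All groups overlapped, and DMSO replicate 1 stood above every other library. The log2 difference of LPS from DMSO was 0.30 (edgeR FDR 0.518), and without that library it was 0.83 (FDR 0.0134). That of LPS+TM7nox from DMSO was -0.17, and without that library 0.36, neither of them called. That of LPS+TM7nox from LPS was -0.47 (edgeR FDR 0.426). With replicates 3 and 4 alone it was called (-0.35, edgeR FDR 0.0127), and so was the LPS change (0.50, FDR 0.000569). With anti-HuR the levels were 147, 125, 131 and 98.5 CPM in DMSO, 238, 256, 246 and 148 in LPS and 179, 308, 204 and 190 in LPS+TM7nox. LPS replicate 4 was low but still above all of DMSO. LPS raised Irf2 there by 0.81 (SE 0.217, edgeR FDR 0.00650). LPS+TM7nox differed from LPS by -0.06 (95% interval -0.52 to 0.40).

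**Figure D2:**
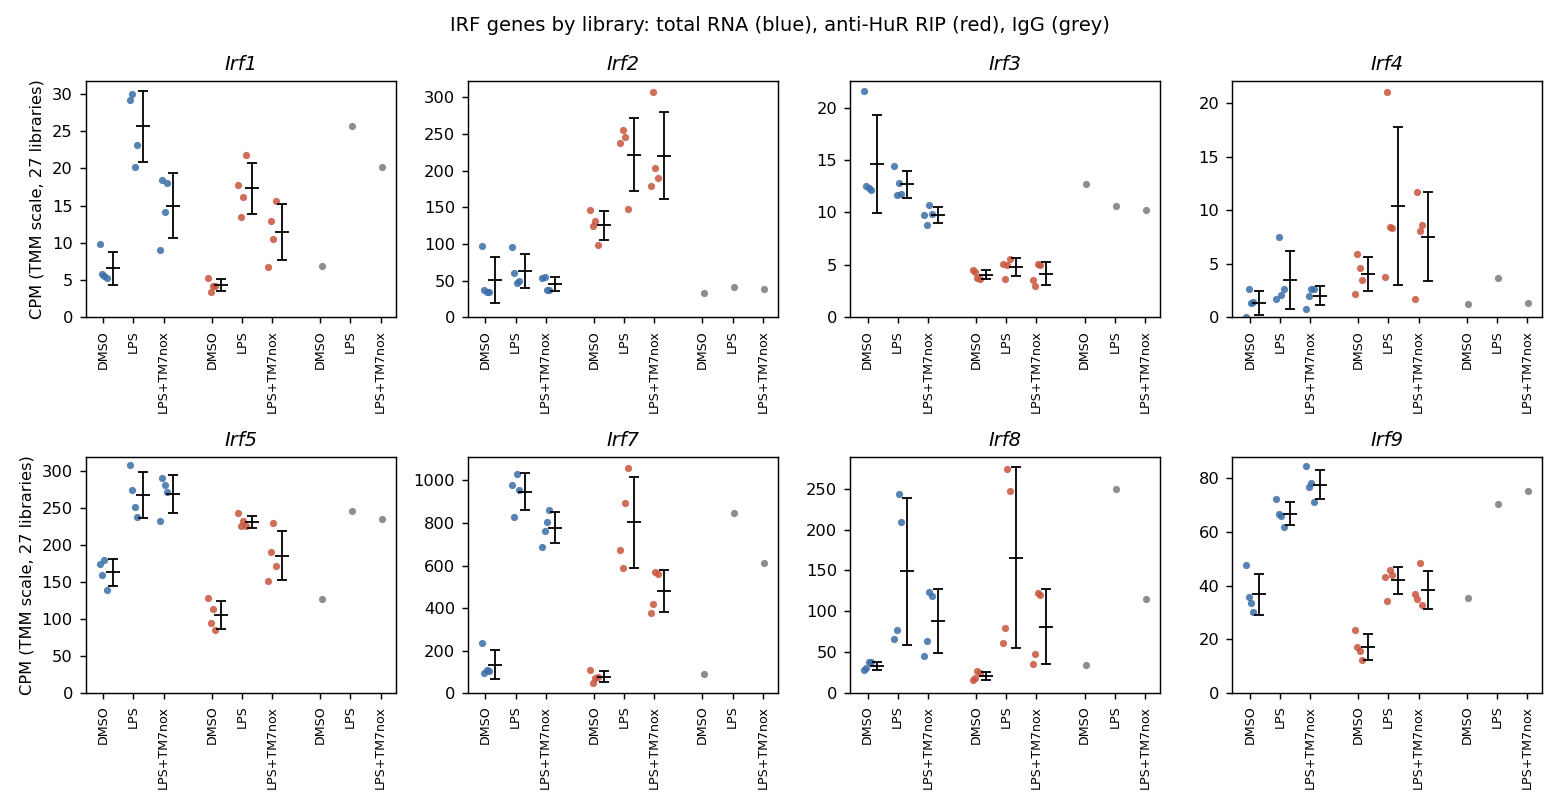
Points give the CPM of each library for the 8 IRF genes in total RNA (blue), anti-HuR RIP (red) and IgG (grey), by treatment, with the mean ± SD of 4 libraries in black where there are 4. Irf7 reaches 828 to 1030 CPM in total RNA with LPS, and Irf2 stands higher in RIP, at 98.5 to 308 CPM, than in IgG, at 32.7 to 41.7 CPM.

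Irf8, which acts with the macrophage factor PU.1, rose with LPS, by unequal amounts across the replicate numbers. In total RNA it stood at 27.9, 30.3, 37.6 and 37.7 CPM in DMSO, at 66.4, 77.3, 243 and 209 in LPS and at 45.1, 64.3, 124 and 119 in LPS+TM7nox. Replicates 3 and 4 were far above replicates 1 and 2 in both LPS groups, and all LPS libraries were above DMSO. The change with LPS was 2.12 (SE 0.414, edgeR FDR 0.000862). It was 1.31 with replicates 1 and 2 alone (FDR 0.00707) and 2.60 with replicates 3 and 4 alone (FDR 9.13e-09), and the difference between these was not tested. With anti-HuR the same libraries stood apart, at 16.0, 18.5, 26.7 and 24.4 CPM in DMSO, 61.7, 79.4, 274 and 247 in LPS and 35.1, 48.4, 122 and 120 in LPS+TM7nox. LPS raised it there by 2.93 (SE 0.485, edgeR FDR 0.000147), by 2.00 in replicates 1 and 2 and by 3.27 in replicates 3 and 4.

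Irf8 was lower in LPS+TM7nox than in LPS in each same-numbered pair. The paired log2 differences were -0.56, -0.27, -0.98 and -0.81 in total RNA and -0.81, -0.71, -1.17 and -1.05 in the anti-HuR RNA. Without the block, the differences of -0.76 (edgeR FDR 0.252) and -1.07 (FDR 0.121) did not pass. With the replicate number as a block both passed: Irf8 fell by 0.68 in total RNA (edgeR FDR 0.0251) and fell by 1.00 in the anti-HuR RNA (FDR 0.00110). The block lifted the share of all genes called as well, to 25.0% in total RNA and 33.6% in the anti-HuR RNA.

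**Figure D3:**
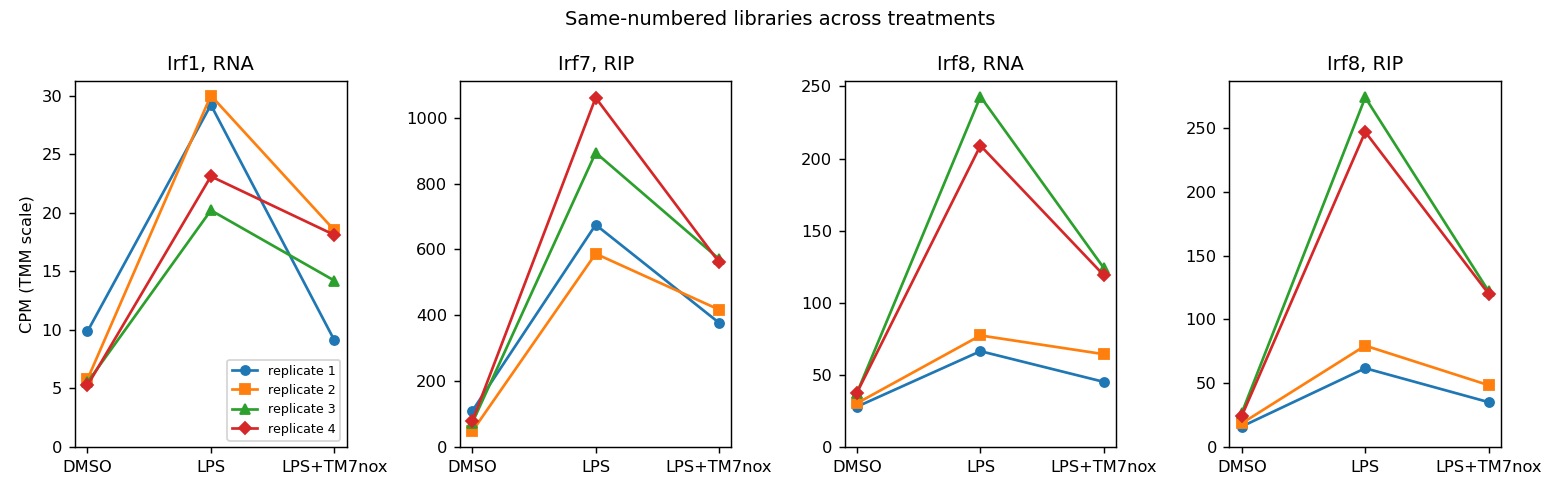
Lines join same-numbered libraries across DMSO, LPS and LPS+TM7nox, in CPM, for Irf1 in total RNA, Irf7 in anti-HuR RIP and Irf8 in both. Each line is lower at LPS+TM7nox than at LPS, and Irf8 replicates 3 and 4 reach 209 to 274 CPM in LPS against 61.7 to 79.4 in replicates 1 and 2.

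Irf4, the other PU.1 partner, had the lowest mean CPM per kb of the 8 in each group of total RNA and of RIP. In the anti-HuR RNA its libraries overlapped those of Irf3 in both LPS groups, at 2.18 against 2.33 CPM per kb in LPS and 1.58 against 2.02 in LPS+TM7nox. Total RNA held 0.00, 2.68, 1.31 and 1.43 CPM in DMSO, 1.67, 7.52, 2.08 and 2.68 in LPS and 0.824, 1.97, 2.67 and 2.66 in LPS+TM7nox. DMSO replicate 1 had no count, which at its depth allows up to 0.644 CPM (3 counts), and all groups overlapped. The LPS difference was 1.16 (edgeR FDR 0.138). It was called in 3 of 14 alternatives, among them the replicate block (1.24, FDR 0.0233), and ranged from 0.48 without LPS replicate 2 (FDR 0.561) to 1.64 without DMSO replicate 2. With anti-HuR it stood at 2.18, 5.89, 4.64 and 3.48 CPM in DMSO, at 3.76, 21.0, 8.43 and 8.36 in LPS and at 1.74, 11.7, 8.08 and 8.64 in LPS+TM7nox. Replicate 2 was highest in each of these groups. LPS raised Irf4 there by 1.33 (SE 0.502, edgeR FDR 0.0407), with overlapping libraries, and the call was held in 7 of 14 alternatives. Leaving out any DMSO library but replicate 2, or LPS replicate 2, 3 or 4, ended it. Without LPS replicate 2 the difference was 0.69 (FDR 0.235). LPS+TM7nox differed from DMSO by 0.81 (edgeR FDR 0.196), called in 4 of 14 alternatives, among them the block (0.69, FDR 0.0125), over a range of 0.50 to 1.13.

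Irf9, the DNA-binding part of the interferon-induced STAT complex, rose with LPS and did not pass the test for TM7nox. In total RNA it stood at 47.8, 35.9, 33.6 and 30.2 CPM in DMSO, at 72.5, 66.9, 66.2 and 61.9 in LPS and at 84.5, 76.9, 78.2 and 71.2 in LPS+TM7nox. Both LPS groups were above DMSO and they overlapped. The changes were 0.84 with LPS (SE 0.143, edgeR FDR 0.000287) and 0.22 between LPS+TM7nox and LPS (FDR 0.366). DMSO replicate 1 was the highest of its group, and the change with LPS was also called without it, at 1.00. With anti-HuR it stood at 23.7, 17.1, 15.8 and 12.3 CPM in DMSO, at 43.3, 34.5, 45.9 and 44.2 in LPS and at 37.1, 35.1, 48.6 and 32.9 in LPS+TM7nox. LPS raised it there by 1.27 (SE 0.200, edgeR FDR 9.43e-05).

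All 8 genes passed the filter on low counts in every fit. With LPS against DMSO, 5 of 8 were higher and 0 lower in total RNA, where 20.2% of all genes were called higher and 21.7% lower. The median log2 change of the 8 was 1.00, against -0.04 over all genes tested. In the anti-HuR RNA 7 of 8 were higher and 0 lower (23.5% and 21.2% of all genes), with a median of 1.30 against -0.00. For LPS, the replicate block also called Irf4 higher in total RNA (edgeR FDR 0.0233), where it called 25.2% of all genes higher and 27.2% lower. In the anti-HuR RNA it called the same IRF genes, and 30.7% and 28.6% of all genes. Between LPS+TM7nox and LPS, 0 of 8 were higher and 1 lower in total RNA (7.37% and 6.40% of all genes), with a median of -0.42 against -0.00. In the anti-HuR RNA the counts were also 0 and 1 (8.64% and 7.61% of all genes), with a median of -0.45 against -0.03. One call in 8 is near those shares. With the replicate block, 2 genes were called in total RNA (Irf1 and Irf8, both lower) and 3 in the anti-HuR RNA (Irf1, Irf7 and Irf8, all lower). The block called 12.7% of all genes lower and 12.3% higher in total RNA, and 17.0% and 16.6% in the anti-HuR RNA.

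**Figure D4:**
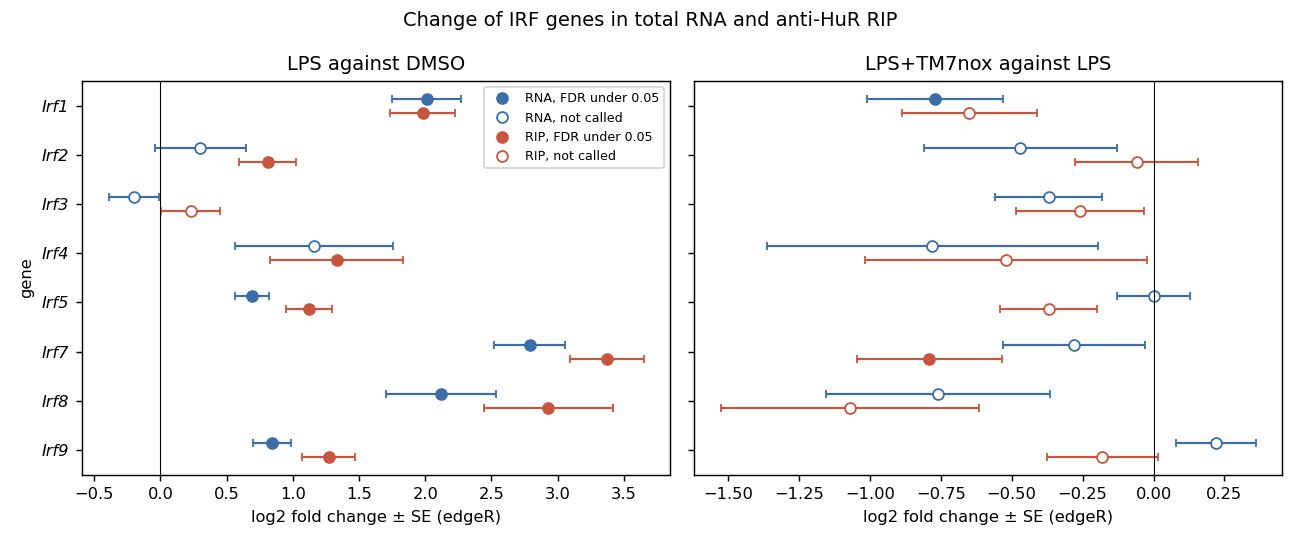
Points give the log2 fold change of each IRF gene with its SE from edgeR, for LPS against DMSO (left) and LPS+TM7nox against LPS (right), in total RNA (blue) and anti-HuR RIP (red), filled where the FDR is under 0.05. LPS changes are filled for 5 genes in RNA and 7 in RIP, and TM7nox changes for Irf1 in RNA (-0.77) and Irf7 in RIP (-0.79).

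LPS+TM7nox and LPS were each set against the same DMSO libraries, so their values are given side by side without a measure of likeness. Against DMSO, LPS+TM7nox had 5 of 8 genes higher and 1 lower in total RNA (23.7% and 23.6% of all genes). The 5 were Irf1 (1.23), Irf5 (0.69), Irf7 (2.50), Irf8 (1.37) and Irf9 (1.06), beside LPS changes of 2.01, 0.69, 2.79, 2.12 and 0.84. In the anti-HuR RNA 6 were higher and 0 lower (25.1% and 23.1% of all genes). These were Irf1 (1.32), Irf2 (0.75), Irf5 (0.75), Irf7 (2.59), Irf8 (1.86) and Irf9 (1.09), beside LPS changes of 1.98, 0.81, 1.12, 3.37, 2.93 and 1.27.

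HuR recovery was read as the ratio of anti-HuR to total RNA within a treatment. The ratio is relative to the typical gene and has no absolute scale, and median-of-ratios scaling in place of TMM moved it for the median gene by 0.16 in DMSO, 0.18 in LPS and 0.22 in LPS+TM7nox (log2). Irf2 and Irf4 were the IRF genes higher with anti-HuR, in all 3 treatments. For Irf2 the log2 ratios were 1.47 (SE 0.266, edgeR FDR 2.76e-05) in DMSO, 1.81 in LPS and 2.23 in LPS+TM7nox, with no overlap between the libraries. For Irf4 they were 1.41 (SE 0.605, edgeR FDR 0.0403), 1.54 and 1.79, with libraries that overlapped. The Irf4 call in DMSO was lost without total RNA replicate 1 (1.17, FDR 0.0876), 3 or 4, or RIP replicate 2 or 3. In LPS it was lost without total RNA replicate 1, 3 or 4, or RIP replicate 2 (0.96, FDR 0.149).

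Irf3 and Irf9 were lower with anti-HuR in all 3 treatments. Irf3 had log2 ratios of -1.70 (SE 0.192, edgeR FDR 2.10e-08), -1.40 and -1.28 in DMSO, LPS and LPS+TM7nox, and Irf9 of -0.97 (SE 0.160, FDR 7.68e-06), -0.68 and -1.06. Their RIP and total RNA libraries did not overlap in any treatment. Irf5 (-0.53 and -0.59) and Irf7 (-0.66 and -0.74) were lower in DMSO and in LPS+TM7nox, and in LPS their ratios of -0.22 and -0.25 did not pass. Without DMSO total RNA replicate 1, Irf7 in DMSO was -0.38 (FDR 0.139), and without RIP replicate 2 it was -0.48 (FDR 0.0857). In LPS+TM7nox its call was lost with median-of-ratios scaling (-0.52, FDR 0.0838) and without RIP replicate 1 or 2 (-0.59 and -0.63). Irf1 was called lower in LPS only (-0.57, edgeR FDR 0.0426). That call was held in 4 of 14 alternatives and lost with median-of-ratios scaling (-0.41, FDR 0.159). Its ratios of -0.44 in DMSO and -0.46 in LPS+TM7nox did not pass, but were called in 1 and 2 of 14 alternatives. Irf8 did not pass in any treatment, at -0.56, 0.11 and -0.19, the last of which was 0.04 with median-of-ratios scaling. In DMSO its RIP libraries all lay below total RNA, with same-numbered differences of -0.80, -0.72, -0.49 and -0.63, and the replicate block called it (-0.54, edgeR FDR 0.0249).

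By count, 2 genes were higher and 4 lower in DMSO (37.0% and 33.4% of all genes), 2 and 3 in LPS (32.9% and 30.8%), and 2 and 4 in LPS+TM7nox (35.2% and 34.8%). The change of the ratio between treatments was called for 0 of 8 genes with LPS (0.0419% of all genes in either direction) and for 0 of 8 with TM7nox (0.00699%). In these edgeR tests no IRF had an unadjusted p under 0.05, the lowest being 0.0927 for Irf5 with TM7nox, and DESeq2 also called 0. The intervals without pairing were wide. The Irf7 difference was 0.41 with LPS (95% interval -0.29 to 1.12) and -0.49 with TM7nox (-1.20 to 0.21), and that of Irf2 was 0.35 (-0.41 to 1.10) and 0.42 (-0.33 to 1.18). Without DMSO total RNA replicate 1 the differences with LPS were -0.03 for Irf2 and 0.12 for Irf7.

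Same-numbered libraries gave a change of the ratio for each number in 7 of the 8 genes, Irf4 having no count in 1 library. With LPS all 4 changes were above 0 for Irf2, Irf5, Irf7, Irf8 and Irf9. With TM7nox all 4 were above 0 for Irf2 and Irf3 and below 0 for Irf5, Irf7, Irf8 and Irf9. The share of all genes with 4 changes of the same sign is not given here, so these signs are a description only. With LPS the Irf8 ratio changed by 0.70, 0.76, 0.66 and 0.87 and the Irf7 ratio by 0.56, 0.46, 0.37 and 0.56. With TM7nox those of Irf8 were -0.25, -0.45, -0.19 and -0.23 and those of Irf7 -0.33, -0.37, -0.29 and -0.77. For Irf2 they were 0.72, 0.34, 0.45 and 0.07 with LPS and 0.45, 0.40, 0.06 and 0.76 with TM7nox. The contrasts share the LPS libraries, which enter them with opposite sign, so nothing is read from the signs of one against the other. A fit with the replicate number as a block within each assay, added after the data were seen, also called 0 of 8 genes in either contrast (1.03% of all genes with LPS and 0.0140% with TM7nox). In it the Irf8 difference was 0.60 with LPS (95% interval -0.04 to 1.23, edgeR FDR 0.369) and -0.31 with TM7nox (-0.93 to 0.31, FDR 0.671). That of Irf7 was 0.38 (-0.22 to 0.98) and -0.48 (-1.07 to 0.11). No IRF had an unadjusted p under 0.05 there, the lowest being 0.0532 for Irf9 with TM7nox.

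Control IgG gave a second comparison of the same RIP libraries, with 1 library per treatment, all of replicate 3. Irf2 stood at 32.7, 41.7 and 38.6 CPM in IgG from DMSO, LPS and LPS+TM7nox, below all 12 RIP libraries. Its log2 difference, RIP against IgG, was 2.25 (SE 0.225, edgeR FDR 3.71e-08). Irf4 stood at 1.26, 3.70 and 1.30 CPM in IgG. These rest on 48, 117 and 15 counts, with 95% Wilson intervals of 0.950 to 1.67, 3.09 to 4.44 and 0.788 to 2.14 CPM. Irf4 was higher in RIP by 1.76 (SE 0.501, edgeR FDR 0.00429), with overlap.

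Irf3 was lower in RIP than in IgG, by -1.39 (SE 0.172, edgeR FDR 6.84e-07), and its IgG levels of 12.7, 10.6 and 10.2 CPM lay above all RIP libraries. Irf9, at 35.3, 70.5 and 75.2 CPM in IgG, was lower by -0.94 (SE 0.157, edgeR FDR 2.71e-05). Irf1, at 6.96, 25.7 and 20.2 CPM in IgG, was lower by -0.72 (SE 0.193, edgeR FDR 0.00281). Irf5 (-0.26), Irf7 (-0.24) and Irf8 (-0.62) did not pass. Set against the RIP libraries of replicate 3 alone, the number that the IgG libraries share and one of the 2 in which Irf8 was high, the differences were -0.06, -0.06 and -0.01. The 5 called genes were called there too, in the same directions. In all, 2 were higher and 3 lower, against 33.8% and 34.2% of all genes. IgG levels of Irf7 were 88.6, 847 and 614 CPM and those of Irf8 34.5, 249 and 115. With 1 library per treatment these have no replicate check, and both genes were higher in the LPS library than in the DMSO library, as in total RNA.

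The 3′ UTRs are described on GRCm39 from the annotated canonical transcripts, by their share of T (U in the RNA). Irf2 had 1244 bases with 30.9% T and 20 runs of TTTTT, and Irf4 had 3309 bases with 30.5% T and 24 runs. These T shares were at percentiles 65.2 and 61.3 among 10990 coding genes tested, whose median was 29.2%, so they were not unusual. Irf3 had 502 bases with 20.1% T, at percentile 2.0, and no such run. Irf9 had 1324 bases, 28.9% T and 8 runs, Irf8 3745 bases, 26.1% and 18, and Irf1 877 bases, 26.7% and 2. Irf7 had 519 bases, 22.2% T and 1 run, and Irf5 534 bases, 25.7% and 1. The pentamer ATTTA occurred 8 times in Irf8, 3 times in Irf1 and Irf4, 2 times in Irf5 and Irf9, 1 time in Irf2 and not in Irf3 or Irf7. The median over the coding genes was 2.0, and 73.5% had at least 1. The 30 bases richest in T are shown for the genes that were higher (Irf2, Irf4) and lower (Irf3, Irf9) with anti-HuR in every treatment, on the plus strand at chr8:47299303-47299332, chr13:30950323-30950352, chr7:44651821-44651850 and chr14:55846716-55846745.
Irf2 3′ UTR window: ttgttctttgtttgtattatattatttttt
Irf4 3′ UTR window: ttgttgttgttcttgttgttgttttttgtt
Irf3 3′ UTR window: ctgtcgactgcgtctaggctggtggttatt
Irf9 3′ UTR window: cttttatctccttttttttaaagctatatt
The Irf2 and Irf4 windows hold 22 T each, that of Irf9 18 and that of Irf3 11. Of the windows not shown, that of Irf8 holds 21 T, Irf1 18, Irf5 16 and Irf7 13. Irf8 thus came close to Irf2 and Irf4, yet did not pass with anti-HuR in any treatment. Within the 8, the genes with the highest T share were those higher with anti-HuR, while Irf9, next after them by T share (percentile 47.8), was lower. With 8 genes this is a description, and binding sites were not measured.

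**Figure D5:**
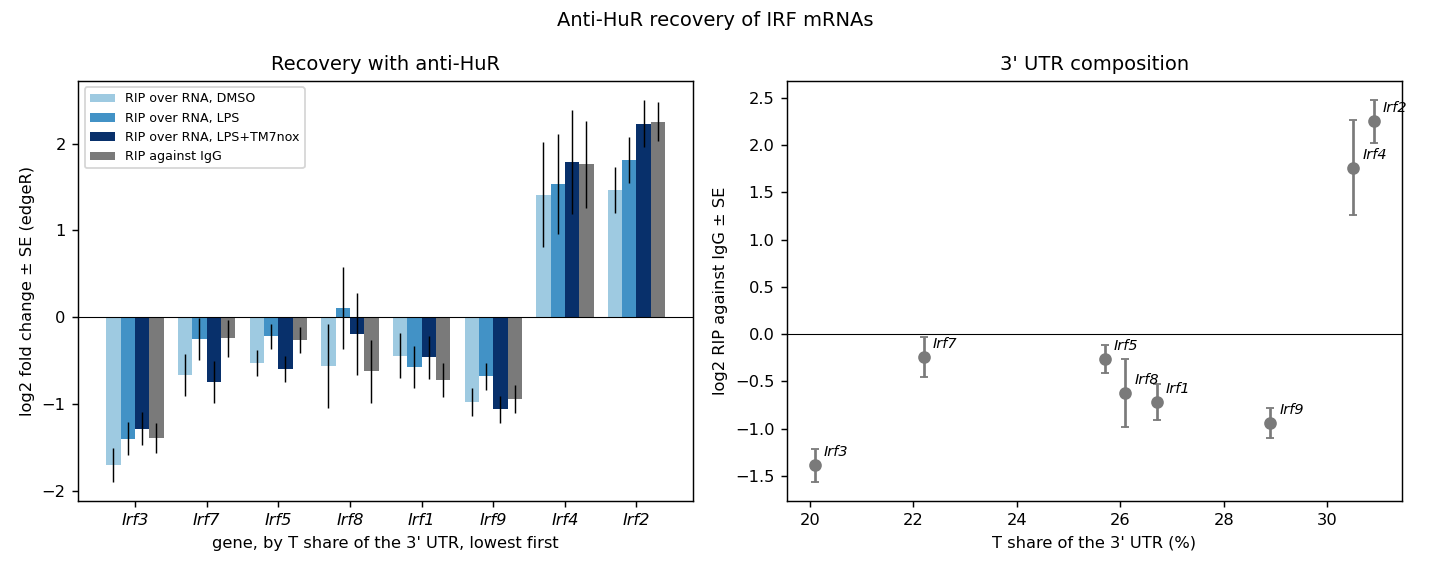
Left, bars give log2 RIP over total RNA in each treatment and RIP against IgG, each with its SE, for the IRF genes ordered by T share of the 3′ UTR. Right, log2 RIP against IgG ± SE is plotted against that share (%), where Irf2 (30.9%) and Irf4 (30.5%) are the 2 genes above 0 and Irf9 (28.9%) lies at -0.94.

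Around the IRFs, the pathway was read from lists of its other genes. Of 20 genes known as IRF targets, 17 passed the filter (Ifna4, Il12b and Ciita did not). Some were near 0 in DMSO and passed through the LPS groups, so no count or median of the list is given for LPS. In total RNA Cxcl10, a chemokine, averaged 7.14 CPM in DMSO and 555 in LPS. Ccl5, another chemokine, averaged 2.07 and 1293, and Rsad2, an antiviral enzyme, 26.8 and 2798. With TM7nox added to LPS, 0 of 17 were higher and 3 lower in total RNA (7.37% and 6.40% of all genes), namely Cxcl10 (-1.24, edgeR FDR 0.00137), Ifit2 (-1.07, FDR 0.0461) and Nos2 (-1.03, FDR 0.00980). In the anti-HuR RNA 5 of 17 were lower, these 3 with Ifit3 (-1.28) and Psmb9 (-0.93), and 0 higher (7.61% and 8.64% of all genes). Ifnb1, the interferon beta gene, averaged 0.0353 CPM in DMSO and 8.16 in LPS, and differed by -1.09 with TM7nox (edgeR FDR 0.332).

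The comparison for TM7nox shares its LPS libraries with that for LPS. Of 13 receptors and adaptors, LPS raised 8 and lowered 3 in total RNA, where 20.2% of all genes were higher and 21.7% lower. Ifih1, a sensor of double-stranded RNA, rose by 3.87, and Tlr4, the LPS receptor, fell by 1.12. TM7nox with LPS raised Tlr4 (0.57, edgeR FDR 0.0349), Ticam1, Ticam2 and Traf3 over LPS and lowered Myd88 (-0.61, FDR 0.0296), with 8 not called (7.37% of all genes higher and 6.40% lower). Of 8 kinases, LPS raised 6 and lowered 2, the latter near the share of all genes lowered (21.7%). Ikbke, which phosphorylates Irf3 and Irf7, rose by 3.13 and was lower by -1.01 with TM7nox (edgeR FDR 0.00194), the 1 kinase called (6.40% of all genes were lower), while its relative Tbk1 rose by 1.24 and differed by -0.08 with TM7nox (FDR 0.660).

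Among interferon receptors and STATs, LPS raised Stat2 (2.84) and Stat3 (2.49) and lowered Ifngr1 (-0.86). Stat2, a partner of Irf9, differed by 0.15 with TM7nox (FDR 0.556), while Stat3 was lower by -0.86 (edgeR FDR 0.000297) and so was Ifngr2. Of 9 IRF partners and corepressors, 7 passed the filter, and LPS raised 5 and lowered 2 (20.2% and 21.7% of all genes). Among those raised was Batf2, at 1.26 CPM in DMSO and 32.4 in LPS. Spi1, which encodes PU.1, rose by 0.68 and was lower with TM7nox by -0.42 (edgeR FDR 0.0326). Irf2bp2, a corepressor that binds Irf2, fell by 1.64 with LPS and was higher by 0.87 with TM7nox (edgeR FDR 0.00115).

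The genes whose level moved most like each IRF over the 12 total RNA libraries were ranked by Pearson's r of log2 CPM among 8592 candidates. These libraries share the 3 treatments, the replicate numbers and the shallow DMSO library, so r is a description. Irf7 was nearest to Epsti1 and Slc15a3 (r = 0.995 for both), Irf9 to Plekhn1 (0.991) and Gadd45a (0.985), and Irf1 to Usp12 (0.980) and Sec24b (0.972). Irf8 was nearest to Sdad1 (0.975) and Maea (0.964), Irf5 to Wdr44 (0.971) and Pcid2 (0.967), and Irf3 to Usp54 (0.956) and Ranbp3 (0.951). For Irf4 they were Hint3 (0.957) and Tax1bp3 (0.952), and for Irf2 Kctd5 (0.948) and Kat6a (0.938).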

How the data were processed

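Total RNA, anti-HuR RIP and IgG libraries of RAW264.7 cells (12, 12 and 3) were prepared by the SMART-Seq Stranded method, per the labels' protocols. The deposited values are raw counts, whole reads per gene and library, in a single table with no normalization. The submitters' processing notes name FastQC 0.11.9, STAR, HTSeq, DESeq2 and GRCm39; the annotation release and strand setting are not given in these sources. Reads carry no stated molecular identifiers, so the Wilson intervals of IgG levels cover counting error only. The intervals of tested differences rest on the SE of the edgeR fits, which also reflects the spread between libraries. No column lacked a sample, and no 2 replicates agreed within sampling noise (chi-square per gene 38.0 to 213 over 36 pairs).

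The tests were edgeR's (version 4.0.16, R 4.3.3), namely two-sided quasi-likelihood F tests with TMM scaling, filterByExpr (minimum count 10) and Benjamini-Hochberg adjustment over all genes tested (FDR), called under 0.05. The 12 RNA and the 12 RIP libraries were fitted separately, RIP over RNA in 1 fit of 24, and RIP against IgG over 15 with treatment as covariate. CPM are on 1 TMM scale over 27 libraries, and were divided by the length of the canonical transcript (GENCODE M39 on GRCm39) to compare genes. Alternatives were median-of-ratios size factors, DESeq2 1.42.0, no filter, the replicate block, replicates 1 and 2 or 3 and 4 alone, and leaving out each library. A block within each assay was added after the data were seen. The scripts were tested on simulated data.

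Deviations from group means correlated between all same-numbered libraries within an assay (12 of 12 pairs in RNA, 0.32 to 0.66, and 12 of 12 in RIP, 0.32 to 0.77), so the numbers were taken as pairing the samples there. That pairing comes from the data and the labels' replicate numbers. The members and gene lists were chosen with earlier results of these data known. All 8 members are named. For each, the 2 genes of highest r over the RNA libraries are named, among tested genes of at least 5 CPM with a prior count of 2. Genes of the pathway lists were singled out for the text after their values were seen. Some items are not reported here.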

Additional observations from a re-analysis of the deposited data

Results flagged for a closer look

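In groups of 4 libraries, a value was taken up here where the gap between the highest or lowest library and its nearest neighbour exceeded Dixon's 95% critical value. This was so in 5 of 48 groups, where chance gives about 1 in 20. Total RNA of DMSO replicate 1, the shallowest library, was the highest of its group for Irf1 at 9.86 CPM (the others 5.25 to 5.77), for Irf2 at 97.5 CPM (34.1 to 37.5), for Irf3 at 21.6 CPM (12.1 to 12.5) and for Irf7 at 234 CPM (92.2 to 109). In RIP, LPS replicate 4 was the lowest of its group for Irf2, at 148 CPM against 238 to 256 in the others.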

How the results depend on the processing

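For single genes, 1390 of 1536 values under an alternative kept their direction and side of the threshold, 68 lost the call, 27 gained it and 51 changed sign. None of the 51 was called, in the original or the alternative analysis. The cause of these differences was not tested, except that fewer libraries or more genes tested are part of some alternatives. In RIP against IgG the same 5 genes were called in each of 20 alternatives, and Irf8 was called besides with no filter (-0.51, FDR 0.0296). The change of RIP over RNA had 0 in all 23 of each contrast.

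The counts that follow are of IRF genes called. For LPS+TM7nox against LPS in total RNA, 1 gene was called. The count was 2 with no filter, 2 with the replicate block and 0 with replicates 1 and 2. It was 3 with replicates 3 and 4 (Irf1, Irf2 and Irf8) and 0 to 1 on leaving out 1 library. In RIP it was also 1, and became 3 with no filter, 3 with the block, 0 with replicates 1 and 2 and 0 to 1 on leaving out 1 library. For LPS+TM7nox against DMSO in total RNA the 6 genes became 3 with replicates 1 and 2, while the share of all genes went from 47.3% to 18.0%. RIP over RNA had 6 in DMSO and 5 in LPS, and 3 in each with replicates 1 and 2. The shares of all genes there went from 70.4% to 49.5% in DMSO and from 63.7% to 47.0% in LPS. On leaving out 1 library the IRF counts for RIP over RNA ranged from 4 to 6 in DMSO and from 3 to 5 in LPS. Over all genes, LPS+TM7nox against LPS called 13.8% in total RNA, against 25.0% with the block, 1.35% with replicates 1 and 2, 27.9% with replicates 3 and 4 and 6.01% with no filter. In RIP these were 16.2%, 33.6%, 5.59%, 7.87% and 6.25%.

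The changes of sign, all in uncalled values, are given on the log2 scale. Irf5 for LPS+TM7nox against LPS in RNA was 0.00, and -0.01 with median-of-ratios scaling, -0.01 with DESeq2 and -0.16 with replicates 1 and 2. Replicates 1 and 2 also turned Irf4 in RNA, LPS+TM7nox against DMSO (0.39 to -0.17), Irf3 in RIP, LPS against DMSO (0.23 to -0.04), and Irf8 in RIP over RNA in LPS (0.11 to -0.06). Replicates 3 and 4 turned Irf3 in RNA, LPS against DMSO, to 0.03, Irf4 in RNA, LPS+TM7nox against LPS, to 0.18, and, for LPS+TM7nox against DMSO, Irf2 in RNA to 0.15 and Irf3 in RIP to 0.36. They also turned the change of RIP over RNA with LPS for Irf1 to 0.04, and that with TM7nox for Irf1 to -0.19 and for Irf4 to -0.22. Irf8 in RIP over RNA in LPS+TM7nox was 0.04 with median-of-ratios scaling and 0.04 with DESeq2. The change with LPS for Irf1 was 0.02 with no filter, and for Irf4 -0.13 with the replicate block and -0.11 with the block within each assay.

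Leaving out 1 library gave ranges across 0. In RNA these were -0.29 to 0.03 for Irf3 (LPS against DMSO), -0.32 to 0.36 for Irf2 (LPS+TM7nox against DMSO) and -0.05 to 0.08 for Irf5 (LPS+TM7nox against LPS). In RIP they were -0.24 to 0.03 for Irf2 and -0.80 to 0.09 for Irf4 (LPS+TM7nox against LPS), and -0.15 to 0.09 for Irf3 (LPS+TM7nox against DMSO). For RIP over RNA, Irf8 ranged from -0.20 to 0.44 in LPS and from -0.44 to 0.14 in LPS+TM7nox. For the change with LPS the ranges were -0.25 to 0.07 (Irf1), -0.03 to 0.64 (Irf2) and -0.40 to 0.85 (Irf4), and with TM7nox -0.08 to 0.35 (Irf1), -0.46 to 0.90 (Irf4) and -0.64 to 0.09 (Irf8).

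Between RNA and RIP, 35 of 36 same-numbered pairs correlated over 0.1 (0.05 to 0.62), not all, so the block is printed beside RIP over RNA for Irf8 in DMSO only. It called 7 genes in DMSO (Irf8 added, -0.54, FDR 0.0249), 5 in LPS and 6 in LPS+TM7nox, against 74.9%, 68.9% and 74.3% of all genes, and it changed no IRF call other than those named. Irf4 had the fewest counts of the IRFs in total RNA and IgG, with 15 in 1 IgG library and 0 in 1 RNA library. In RIP the summed counts of Irf3 were lower, at 371 against 784 for Irf4 in LPS.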
